A study of Mus musculus with 4 samples.

Results

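The proteasome is the barrel-shaped protease that breaks down proteins tagged with ubiquitin, and its core and regulatory particle subunits were followed here at the level of messenger RNA in the cerebellum of mice with Derlin-2 deleted in the nervous system. Earlier results of these data were known when the gene list was chosen, though its rule uses no measured value. The list held 36 genes, chosen by name from the known structure of the complex. A probe was found for 35 of them, and these 35 were read among 16524 genes with a detected probe. They were covered by 57 probes, all 57 of them well above background on all 4 arrays. No probe could be matched to Psme2, which was not analysed here.

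The core particle is a stack of rings. Its outer rings are built of alpha subunits, which gate the entrance, and its inner rings of beta subunits, among which Psmb5, Psmb6 and Psmb7 carry the peptide-cutting sites. The regulatory particle caps the core: its base holds a ring of ATPases that unfold the substrate and pull it in, together with receptors for ubiquitin, and its lid removes the ubiquitin chain. Misfolded proteins of the endoplasmic reticulum (ER) are sent back to the cytosol by ER-associated degradation, in which the membrane protein Derlin-2 takes part, and are destroyed by the proteasome, so the comparison asks whether loss of an ER degradation factor goes with a coordinated difference of the subunits. When proteasome capacity is short, the transcription factor Nrf1, encoded by Nfe2l1, is known to raise the subunit genes together.

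The RNA came from C57BL/6 mice at postnatal day 28, as 4 samples, 2 in each group, on single-colour Agilent arrays. The control mice were Derlin-2flox/flox. The Derlin-2_KO mice came from crosses of Derl2flox/flox mice with mice whose Cre recombinase is driven by the nestin promoter, a promoter of neural precursor cells, so cells of other origin in the tissue need not have lost the gene. The labels name Cre for the knockouts only, so Cre and the deletion cannot be told apart, and they state neither sex nor whether RNA was pooled. P-values therefore speak only of these samples, whose spread may be technical. Standard errors, intervals and p-values are from limma, which pulls each probe's spread toward a value shared by all kept probes. Of the fit's 4.35 degrees of freedom, 2.35 came from that shared value.

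Between 66.4% and 69.4% of the 59305 non-control spots per array were well above background, with 0 saturated. The 4 arrays shared 1 slide, with the control arrays in positions 1 and 2 and the KO arrays in 3 and 4, and position and genotype cannot be told apart. On its brighter probe, Derl2 itself had log2 levels of 2.13 and 2.20 (control) against 0.81 and 0.70 (KO). Its difference was −1.41 (SE 0.11) there and −1.73 (SE 0.10) on its other probe, with a limma adjusted p of 0.273 for each, so the targeted gene itself did not pass the adjusted threshold with 2 arrays a group. The cerebellar identity markers Pcp2, Gabra6, Zic1 and Cbln1 were present at a like level throughout, with a summed log2 level between 9.02 and 9.12. The 4 choroid plexus markers summed to 6.98 in control replicate 2 against 1.04 to 1.53 on the other arrays, and the 3 red blood cell genes measured of 4 listed were also highest there, at 8.04 against 7.48 to 7.57. The 7 oligodendrocyte markers had a median difference between KO and control of −0.277 and summed log2 levels of 8.49 to 8.57 in control and 8.28 to 8.44 in KO. The 5 microglia markers had a median of −0.225 and sums of 3.92 to 3.96 in control and 3.61 to 3.81 in KO. All 12 genes had a lower mean in KO, though Mobp did not under quantile or spike-in scaling. The part of tissue makeup in the values below was not tested. In tissue RNA, fewer cells of a type and less RNA per cell cannot be told apart.

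In what follows, a level is the log2 processed signal of a probe minus the 75th percentile of its array, a difference is KO minus control on that scale, and a gene is read on its brightest probe unless another is named. Levels of different probes are not compared, because probes differ in how well they bind.

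The subunits were, by a small margin, lower and not higher in KO, and no single difference passed the test. Of the 35 members, 32 had a lower mean in KO than in control and 3 a higher one, and the differences lay in a narrow band from −0.27 for Psmb3 to 0.07 for Psme4. The median difference was −0.145, which corresponds to 90.4% of the control signal. Over all 16524 genes the median was −0.064 (95.7% of control), and 63.9% of genes had a difference below 0. The member median minus that of all genes was −0.081, and it rested in part on single arrays: it was −0.133 without KO replicate 1 (members −0.193, all genes −0.06) and −0.031 without KO replicate 2 (members −0.094, all genes −0.063). With normexp background correction it was −0.122. In 21 members both KO arrays lay below both control arrays, and in 0 did both lie above. The same rule was met in the lower direction by 32.1% of all genes and in the higher direction by 13.8%. Among the 3342 genes with a mean level above 3, where 28 of the 35 members lie, 39.6% were lower and 11.6% higher without overlap, 69.7% had a difference below 0, 3.83% had an unadjusted p under 0.05, and the median difference was −0.062; that bound was chosen after the values were seen.

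None of these small differences passed the test. At a Benjamini-Hochberg adjusted p under 0.05 with limma, 0 of 35 members were called, against 0 of 37516 probes (0% of those tested). At an unadjusted p under 0.05 the brightest probes gave 0 of 35 members, against 8.81% of all genes and 14% of all probes. Among genes with a mean level above 3 the share was 3.83%. This count depended on how the variances were fitted. With an intensity trend and robust variances it was 8 members, all lower in KO, against 13% of all genes. Over the 57 member probes, 54 had a difference below 0, against 54.8% of all probes. The smallest adjusted p of a member was 0.388, for Psmb3, and under the alternatives the smallest over all members ran from 0.206 to 0.808. The 95% intervals of the fit excluded a rise of 2-fold for 35 of 35 members and a rise of 1.5-fold for 34, the exception being Psma3, and none lay wholly below 0.

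**Figure D1:**
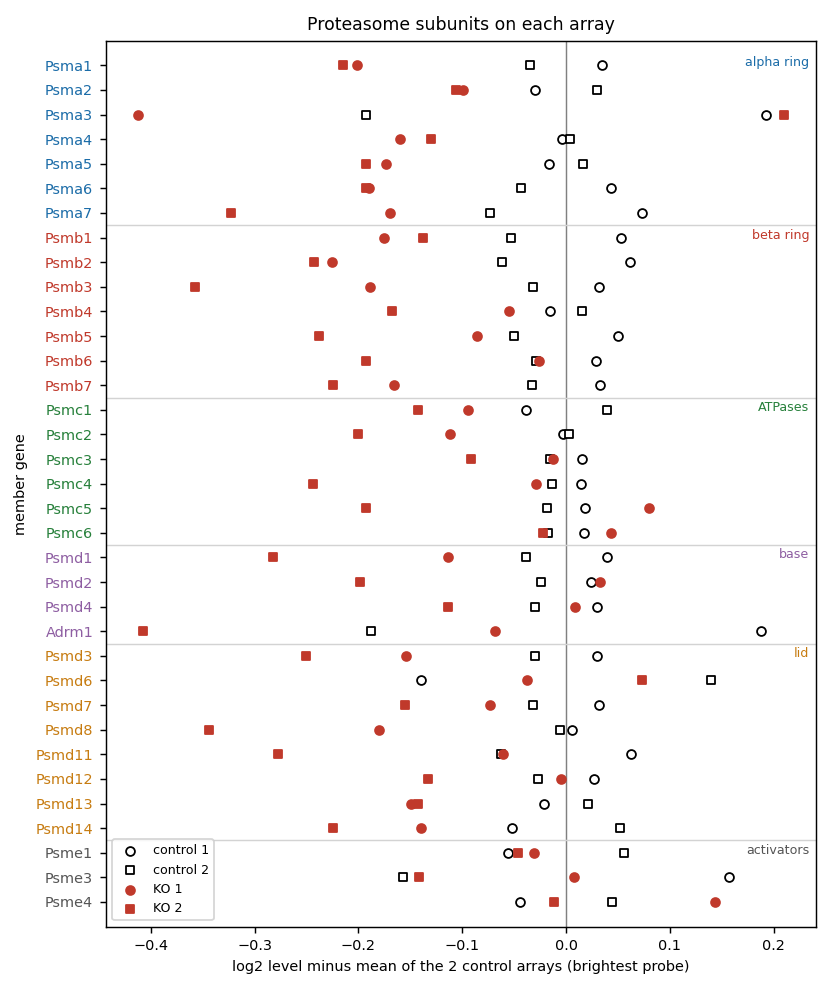
Each row is a member gene, grouped by place in the complex, and the x axis is the log2 level of its brightest probe minus the mean of the 2 control arrays. Open symbols are control arrays and filled symbols KO arrays, circles replicate 1 and squares replicate 2; most filled symbols lie left of the open ones, with 21 of 35 rows showing no overlap.

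**Figure D2:**
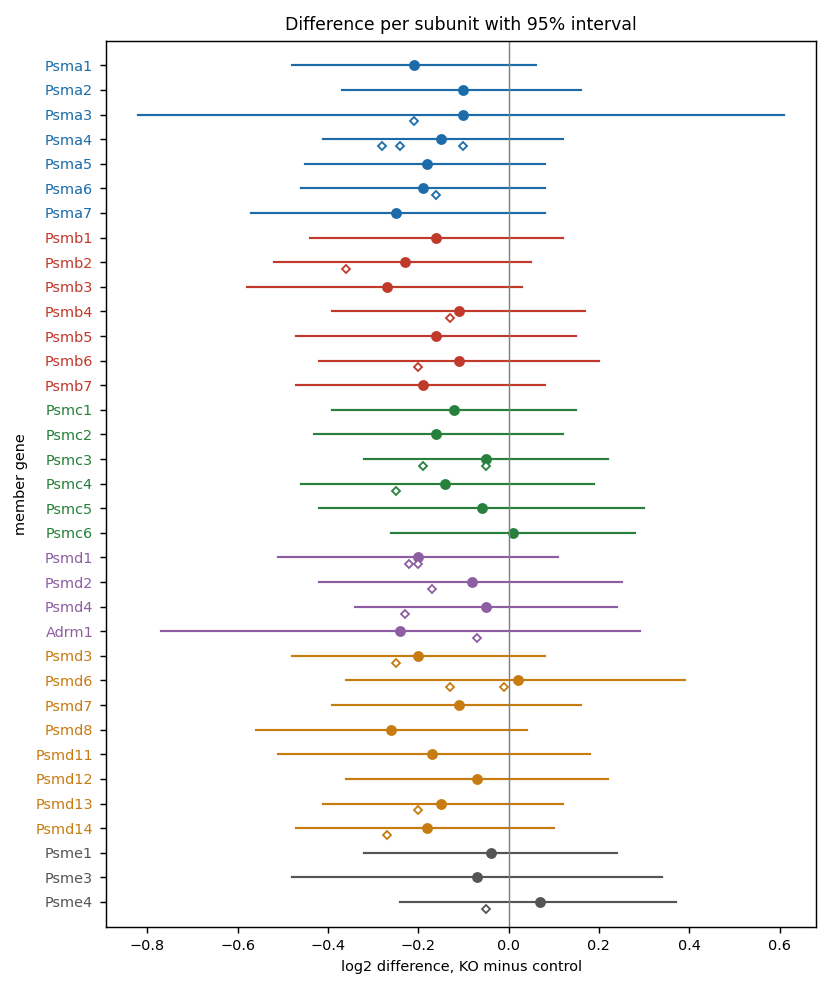
The x axis is the log2 difference, KO minus control, with 2 arrays in each group. Filled points are the brightest probe of each member with its 95% limma interval, open diamonds are further probes of the same gene, and colours mark the same groups as in the plot of single arrays; every interval of a filled point crosses 0.

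The size of the offset differed between the 2 knockouts. Against the mean of the controls, the median over members was −0.094 in KO replicate 1 and −0.193 in KO replicate 2. KO replicate 1 lay below both controls in 22 members and KO replicate 2 in 30, against 49.3% of all genes for each array. The gap between the groups can be set beside the gaps within them: the median member difference was 0.055 between control replicates 1 and 2 and 0.088 between KO replicates 1 and 2. Over all genes these gaps within groups were −0.008 and 0.002. In each of the 4 ways of setting a single KO array against a single control array the member median ran from −0.197 to −0.097. Across the 35 members, Pearson's r between the differences of KO replicate 1 and those of KO replicate 2, each against a different control array, was −0.23 when like-numbered arrays were set against each other and −0.19 when the numbers were crossed, a description across genes that share their arrays.

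The offset also depended in size on the scaling of the arrays, but its sign did not turn under any of the 16 alternatives. Under these the member median ran from −0.193 to −0.061. Some could not move it: changing the filter on dim probes, or fitting an intensity trend or a replicate block, leaves every member difference unchanged. Quantile normalization gave a median of −0.087, with 28 members below 0, 16 lower without overlap and 2 higher. Over all genes it gave a median of −0.027, with 24.9% lower without overlap and 18.4% higher. Scaling to 7 bright spike-in probes gave −0.061, with 25 members below 0 (71.4% in place of 91.4%), 14 lower without overlap and 2 higher. The median of all genes then turned to 0.02, and 17.2% of genes were lower without overlap and 24.9% higher. The 2 higher members were Psmc6 and Psme4 in both settings. Spike-in scaling moves every gene by the same amount, so it cannot change the gap between the members and all genes.

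**Figure D3:**
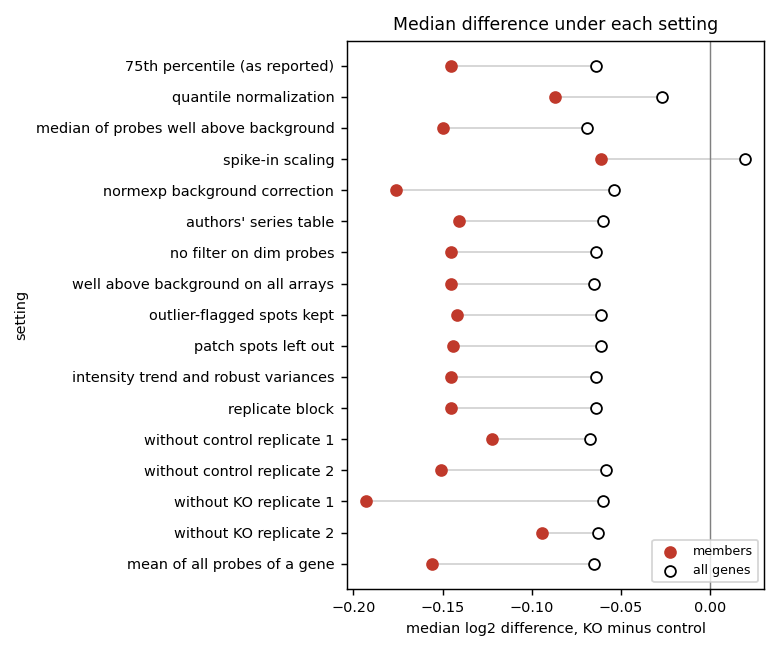
Median log2 difference, KO minus control, on the x axis for each setting on the y axis; filled points are the median over the members and open points the median over all genes. The filled points lie between −0.193 and −0.061, and the gap to the open points is smallest without KO replicate 2; in settings that only rescale each array by 1 factor, such as spike-in scaling, the gap is fixed.

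**Figure D4:**
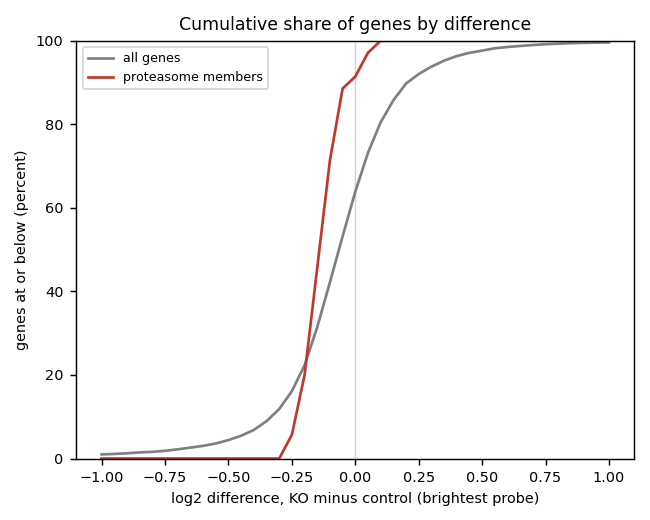
Cumulative percent of genes (y axis) at or below a given log2 difference, KO minus control (x axis), for the members and for all genes with a detected probe. The member curve is steep, since all 35 differences lie between −0.27 and 0.07, and crosses the curve of all genes.

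In the alpha ring, all 7 genes had a lower mean in KO, with a median of −0.183, and 6 of the 7 were lower without overlap; all 7 stayed below 0 under quantile and spike-in scaling. The lowest was Psma7 (probe A_51_P233603), which stood at 4.87 and 4.73 in control and 4.63 and 4.48 in KO, so the groups did not overlap. Its difference was −0.25 (SE 0.12; limma adjusted p 0.434). In Psma1, Psma5 and Psma6 the arrays within each group lay closer together: Psma6 was at 4.77 and 4.68 in control and 4.53 on both KO arrays, a difference of −0.19 (SE 0.10). Psma3 was the alpha gene whose groups overlapped, at 5.54 and 5.15 in control and 4.93 and 5.55 in KO. Its other probe read 2.94 and 2.39 in control and 2.20 and 2.71 in KO, so both probes put control replicate 1 and KO replicate 2 high and the other 2 arrays low. Psma4 had the most probes, and all 4 were lower in KO without overlap, with differences from −0.28 to −0.10. Psma2, the remaining alpha gene, differed by −0.10.

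In the beta ring, again all 7 genes had a lower mean in KO, with a median of −0.162, and 6 were lower without overlap; all 7 stayed below 0 under quantile and spike-in scaling. Psmb5, which carries the chymotrypsin-like site, was at 3.78 and 3.68 in control and 3.64 and 3.49 in KO (probe A_51_P269728). The groups were separate by a margin smaller than the gap between the controls, and the difference was −0.16 (SE 0.11; limma adjusted p 0.553). Psmb6, with the caspase-like site, was at 5.67 and 5.61 in control and 5.62 and 5.45 in KO (A_55_P2035657), and its groups overlapped, with a difference of −0.11 (SE 0.11; limma adjusted p 0.678). Its other probe, at 3.99 and 3.94 against 3.85 and 3.68, was lower without overlap. Psmb7, with the trypsin-like site, was at 3.43 and 3.36 in control and 3.23 and 3.17 in KO (A_51_P468329), a difference of −0.19 (SE 0.10; limma adjusted p 0.452).

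Psmb3, a non-catalytic beta subunit, had the smallest p of all members. Its level was 5.2 and 5.14 in control and 4.98 and 4.81 in KO (A_55_P2492068), and its difference of −0.27 (SE 0.11; unadjusted p 0.0701) corresponds to a 95% interval that reached from 66.9% to 102% of the control signal. Psmb2, another non-catalytic beta subunit, held the 1 member probe of 57 with an unadjusted p under 0.05. On that dimmer probe, A_51_P404084, it was at 0.02 and −0.07 in control and −0.32 and −0.46 in KO, a difference of −0.36 (SE 0.11; unadjusted p 0.0296; limma adjusted p 0.322). The brighter Psmb2 probe gave −0.23 (SE 0.11; limma adjusted p 0.407), also without overlap, from 0.09 and −0.03 in control to −0.20 and −0.21 in KO. Psmb1 and Psmb4, also non-catalytic, differed by −0.16 and −0.11.

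The proximal promoters of 4 members are shown because the response that lifts subunits together acts through the antioxidant response element (ARE), and these 4 are the catalytic Psmb5 and Psmb6, the lowest member Psmb3 and the highest, Psme4. The sequences are those of RefSeq. Each window runs from 250 bases before to 50 bases after the start of the gene on build GRCm38.p6, read 5′ to 3′ on the strand of the gene. Capitals mark the letters TGACNNNGC of the ARE on either strand, and the letters CCAAT of the box bound by NF-Y, also on either strand.
Psmb5, chr14:54617946-54618245, minus strand: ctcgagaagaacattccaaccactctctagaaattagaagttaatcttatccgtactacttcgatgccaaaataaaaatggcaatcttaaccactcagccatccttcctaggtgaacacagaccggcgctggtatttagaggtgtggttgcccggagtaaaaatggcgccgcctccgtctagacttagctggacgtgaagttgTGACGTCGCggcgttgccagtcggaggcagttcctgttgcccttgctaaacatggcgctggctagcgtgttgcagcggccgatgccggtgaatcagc
Psmb6, chr11:70525107-70525406, plus strand: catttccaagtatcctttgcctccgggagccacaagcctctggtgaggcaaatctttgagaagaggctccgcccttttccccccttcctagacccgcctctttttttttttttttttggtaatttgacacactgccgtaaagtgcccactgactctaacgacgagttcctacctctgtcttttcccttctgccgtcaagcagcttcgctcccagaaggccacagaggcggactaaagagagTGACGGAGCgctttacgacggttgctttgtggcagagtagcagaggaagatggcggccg
Psmb3, chr11:97703184-97703483, plus strand: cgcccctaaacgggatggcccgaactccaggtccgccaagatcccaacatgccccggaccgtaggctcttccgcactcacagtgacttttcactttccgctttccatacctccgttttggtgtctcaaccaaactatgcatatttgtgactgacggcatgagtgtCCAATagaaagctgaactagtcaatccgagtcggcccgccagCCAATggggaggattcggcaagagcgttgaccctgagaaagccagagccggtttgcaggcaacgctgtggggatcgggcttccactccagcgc
Psme4, chr11:30771525-30771824, plus strand: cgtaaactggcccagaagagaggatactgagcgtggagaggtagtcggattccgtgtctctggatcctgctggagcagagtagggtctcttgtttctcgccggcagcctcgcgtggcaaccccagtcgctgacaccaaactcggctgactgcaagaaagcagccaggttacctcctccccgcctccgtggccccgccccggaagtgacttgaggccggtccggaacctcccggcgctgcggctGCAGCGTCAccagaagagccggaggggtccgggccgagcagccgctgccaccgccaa
Psmb5, Psmb6 and Psme4 each hold 1 match to the ARE letters and none to CCAAT, while Psmb3 holds 2 CCAAT matches and no ARE match. A window was given for 30 of the 36 members, and 6 of these 30 (20%) held the ARE letters, against 14% of 27025 genes and 12.4% of their 32851 windows of the same length. Counted from the start of the gene, the match begins at position −47 in Psmb5, at −9 in Psmb6 and at −7 in Psme4, there on the reverse strand. CCAAT was present in 12 of the 30 (40%), against 41.1% of all genes. The other 3 members with the ARE letters were Adrm1, Psmc6 and Psmd12. The differences of the 6 ran from −0.24 to 0.07 with a median of −0.09 and 1 lower without overlap, and the 23 measured members with a window but no match ran from −0.27 to 0.02 with a median of −0.15 and 15 lower without overlap. The ER stress response element is CCAAT and CCACG with 9 bases between them, and so holds the CCAAT letters. It was found in 0 of the 30 members, against 0.137% of all genes and 0.119% of all windows. The letters TGACGTGG, the core of the unfolded protein response element, were found in 0 of 30, against 0.714% and 0.676%. At shares this low, 0 of 30 says little about the members. No ARE match in a member overlapped a match to another of these motifs. These matches are letters in a window, not sites of binding.

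In the regulatory particle the lower means were spread less evenly. Of its 18 genes, 16 had a lower mean in KO and 9 were lower without overlap, with a median of −0.128, against 14 and 12 of the 14 core genes with a median of −0.173; the difference between the particles was not tested. KO replicate 1 stood nearer to the controls here, with a median of −0.065 against the control mean where KO replicate 2 had −0.195. In the core particle these medians were −0.171 and −0.193.

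The ATPases that unfold the substrate had a median of −0.088, which came to −0.012 after quantile normalization and −0.003 with spike-in scaling, where 3 of the 6 were below 0. It was −0.168 without KO replicate 1 and −0.021 without KO replicate 2. As scaled here, 3 of 6 were lower without overlap: Psmc1, Psmc2 and Psmc4. The lowest was Psmc2, at 4.59 and 4.6 in control and 4.48 and 4.39 in KO (A_55_P2051874), with a difference of −0.16 (SE 0.10; limma adjusted p 0.525). Psmc6 had a mean difference near 0, with a 95% interval from −0.26 to 0.28 that holds the member median. It was at 4.33 and 4.29 in control and 4.35 and 4.29 in KO (A_52_P617186), a difference of 0.01 (SE 0.10; limma adjusted p 0.971). Psmc5 was split between the knockouts, with 4.10 and 4.06 in control, 4.16 in KO replicate 1 and 3.89 in KO replicate 2. Psmc3 differed by −0.05 on its brightest probe, with overlapping groups on all 3 of its probes. Psmc1 and Psmc4 differed by −0.12 and −0.14.

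The base subunits outside the ATPase ring had a median of −0.14, with 1 of 4 lower without overlap; with spike-in scaling the median was −0.056 and 2 of the 4 were below 0. Without KO replicate 1 the median was −0.24, and 4 of 4 were lower without overlap. A single KO array meets that rule more easily: 30 of the 35 members and 49.3% of all genes did there. The median was −0.03 without KO replicate 2, where 2 of 4 were below 0, and −0.054 without control replicate 1. The member lower without overlap on all arrays was Psmd1, a scaffold of the base, at 4.37 and 4.29 in control and 4.22 and 4.05 in KO, and its 3 probes gave differences from −0.22 to −0.20. Adrm1, a ubiquitin receptor, had the lowest mean difference of the base, −0.24 (SE 0.20; limma adjusted p 0.607), but it ran from −0.426 to −0.049 with an array left out, and the controls were further apart than the groups: 2.40 and 2.03 in control, 2.15 and 1.81 in KO (A_55_P2092329). Its second probe ordered the arrays the same way, at −1.59 and −1.81 in control and −1.72 and −1.82 in KO. Psmd4, another ubiquitin receptor, and Psmd2, a scaffold, differed by −0.05 and −0.08 with overlapping groups. Their dimmer probes gave −0.23 (SE 0.16) and −0.17 (SE 0.18), also with overlapping groups.

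The lid had a median of −0.158, with 7 of 8 genes below 0 (6 with spike-in scaling) and 5 lower without overlap. Psmd8 was the lowest, at 2.89 and 2.88 in control and 2.70 and 2.54 in KO (A_51_P149325), a difference of −0.26 (SE 0.11; unadjusted p 0.0735; limma adjusted p 0.391). Psmd14, the lid enzyme that cuts off the ubiquitin chain, was at 3.79 and 3.89 in control and 3.70 and 3.62 in KO, a difference of −0.18 (SE 0.11), and its dimmer probe gave −0.27 (SE 0.11), both without overlap. Psmd6 was the lid gene with a mean above 0. Its brightest probe was at 4.25 and 4.53 in control and 4.35 and 4.46 in KO (A_55_P2482623), a difference of 0.02 (SE 0.14; limma adjusted p 0.964), so both KO arrays lay between the controls; its other 2 probes gave −0.13 and −0.01. Psmd3, Psmd7 and Psmd13 were lower without overlap, with differences of −0.20, −0.11 and −0.15, and Psmd11 and Psmd12 differed by −0.17 and −0.07 with overlapping groups.

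The activators, which cap the core in place of the regulatory particle, had a median whose sign depended on the scaling: −0.039 as scaled here, 0.012 after quantile normalization and 0.046 with spike-in scaling, over the 3 measured of 4 listed. With an array left out it ran from −0.046 to 0.022. Among them 0 of 3 had groups that did not overlap. Psme4 was at 3.09 and 3.18 in control and 3.28 and 3.12 in KO (A_51_P166198), a difference of 0.07 (SE 0.11; limma adjusted p 0.81), and −0.05 on its dimmer probe. Psme3 was at 0.06 and −0.25 in control and −0.09 and −0.24 in KO (A_55_P2020572), a difference of −0.07 (SE 0.15; limma adjusted p 0.857); its spot on control replicate 1 lay on a patch of raised local background. Psme1 differed by −0.04 (SE 0.10).

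Probes of the same gene gave a further look at the offset, though they share the RNA and the arrays. Of the 17 members with more than 1 probe, 15 had every probe below 0, and the other 2 were Psmd6 and Psme4. The 22 probes that are not the brightest of their gene all had a difference below 0 as scaled here, with a median of −0.20, and 13 of the 22 were lower without overlap, against 26.9% of all 37516 probes. None of the 22 was higher without overlap, against 22.5% of all probes. With quantile normalization 20 of the 22 were below 0, and with spike-in scaling 18, with 1 higher without overlap.

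Nfe2l1, whose product drives the induction of subunit genes, had a lower mean in KO. It was at 3.81 on both control arrays and at 3.73 and 3.54 in KO, a difference of −0.17 (SE 0.12; limma adjusted p 0.531), and −0.05 on its dimmer probe. A list of 9 genes around Nrf1 had a median of −0.035. It held Nfe2l1, the protease Ddi2, the glycanase Ngly1 and the segregase Vcp. The others were Nfe2l2, Mafg, Mafk, Rbx1 and Cul1, and not every gene of the list activates Nrf1. Of these 9, counting Nfe2l1, 3 had a higher mean and 6 a lower one, 3 were lower without overlap, and 0 had an adjusted or unadjusted p under 0.05. The sign of this small median turned with scaling to the spike-in probes, to 0.049.

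The immunoproteasome subunits Psmb8, Psmb9 and Psmb10, which replace the catalytic subunits under interferon signalling, all had a lower mean in KO, with a median of −0.268 (−0.183 with spike-in scaling) and 2 of 3 lower without overlap. Psmb10 was at 3.08 and 2.98 in control and 2.83 and 2.69 in KO, a difference of −0.27 (SE 0.11; limma adjusted p 0.391). Psmb9 was at −1.89 and −2.30 in control and −2.71 and −2.37 in KO, where the controls were nearly as far apart as the groups. These genes are also expressed by microglia, whose 5 markers were lower in KO as given above; the part of microglia in the values was not tested.

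Among the assembly chaperones, which build the core and base, all 8 measured of 9 listed had a lower mean in KO as scaled here, with a median of −0.126 and 5 lower without overlap; with spike-in scaling 6 did, with a median of −0.042 and 1 lower without overlap. Psmg2, which helps to build the alpha ring, had the smallest p, at 1.40 and 1.36 in control and 1.1 and 1.04 in KO, a difference of −0.31 (SE 0.10; unadjusted p 0.0329; limma adjusted p 0.328). Pomp, the maturation factor of the core, differed by −0.01 (SE 0.11) with overlapping groups.

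The regulators and deubiquitinases bound to the proteasome had a median of −0.033 (0.017 after quantile normalization and 0.051 with spike-in scaling) over 7 measured of 8 listed, with 2 higher and 2 lower without overlap. Ecpas, a scaffold that tethers the core to its cap, was at −0.77 and −0.62 in control and −0.10 and −0.35 in KO on its brighter probe, a difference of 0.47 (SE 0.14; unadjusted p 0.0233; limma adjusted p 0.307). Its other probe read −1.13 and −1.18 in control and −0.97 and −1.31 in KO, a difference of 0.01, with overlapping groups. Uchl5, a deubiquitinase held by Adrm1, was higher without overlap by 0.09 (SE 0.10).

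The ubiquitin genes and shuttle factors, which supply the tag and carry tagged proteins to the proteasome, had a median of −0.062 over 11 genes, close to the −0.064 of all genes. Of the 11, 4 were lower and 0 higher without overlap. The list's median turned to 0.009 after quantile normalization and 0.022 with spike-in scaling. Of the tissue-specific core subunits, Psma8, an alpha subunit of the testis, was the 1 measured of 2 listed. Its signal was dim, at −3.56 and −3.93 in control and −4.41 and −3.8 in KO, with overlapping groups. Its difference was −0.36 (SE 0.26, limma adjusted p 0.561).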

How the data were processed

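Total RNA (150 ng per sample) was labelled with Cy3, per the labels' protocols, and the spots were quantified, per the file headers, by Feature Extraction 12.1.1.1 of Agilent; the submitters' processing notes name version 10.7.1.1. Its processed signal, as deposited, is a linear intensity, background subtracted and detrended within each array. The deposited series table holds log2 values, with column medians of 0.01 and −0.19 (control) and −0.16 and −0.22 (KO); differences between its columns matched scanner values within 0.01 in 100% of 37516 probes, but how probes were centred is unknown. The flags in the deposited files, other than intensity, mark outliers and spots well above background.

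Log2 signals were averaged over the spots of a probe without outlier-flagged spots, and the array's 75th percentile was then taken off. Probes well above background on both arrays of a group were kept (37516). RefSeq accessions were named through a gene table of GRCm38.p6: 32994 of 35886 (91.9%) matched. The comparison of the groups used limma 3.58.1 (lmFit, eBayes, no covariates, R 4.3.3) over all kept probes with Benjamini-Hochberg adjustment; the fit had 4.35 degrees of freedom. The script was tested on simulated data. The number of arrays limits precision.

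Members and lists were chosen with earlier results of these data known. Values are printed for the catalytic subunits, the largest fall and rise of each group, the 3 smallest p in each direction, Nfe2l1, Derl2 and the smallest p of each related list, except 1 gene that is not reported here; the remaining members, Psmb2's dimmer probe, Psmb9, Pomp, Uchl5 and marker genes were added after their values were seen. Alternatives are given in the closing section.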

Additional observations from a re-analysis of the deposited data

How the results depend on the processing

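The member median stayed below 0 under all 16 alternatives, but some of them could not move it. Changes of the filter on dim probes, the intensity trend and the replicate block leave every member difference unchanged. The submitters' series table could hardly move the median, since its column differences match the scanner values. Under the 12 alternatives that keep all arrays, 0 members passed the adjusted threshold. The median was −0.087 after quantile normalization and −0.061 with spike-in scaling, and from −0.193 (without KO replicate 1) to −0.094 (without KO replicate 2) with an array left out; without control replicate 2, the array with choroid plexus signal, it was −0.151. Members lower without overlap numbered 14 to 24 with all arrays, against 17.2% to 32.7% of all genes. With an array left out, a single array in a group meets the rule more easily. There members lower without overlap numbered 22 to 30, against 44.6% to 49.3% of all genes. Members higher without overlap were 0 as reported. They were 2 after quantile normalization (18.4% of all genes), 2 with spike-in scaling (24.9%) and 1 to 4 with an array left out (22.6% to 27.6%). Members at an unadjusted limma p under 0.05 were 0 as reported, against 8.81% of all genes. Under normexp there were 4 (Psmb2, Psmb3, Psmb7, Psmd8), against 10.9% of all genes. With an intensity trend and robust variances there were 8 (Psma1, Psma5, Psma6, Psma7, Psmb3, Psmb7, Psmd3, Psmd8), against 13%. With each gene's probes averaged there was 1 (Psmb2), against 8.52%. All of these members were lower in KO. Over all probes the calls, 0 as reported, were 1 under spike-in scaling, 1 without patch spots, 1 under quantile normalization, 1 with scaling to the median detected probe, 2 under normexp, 4 with the intensity trend and 0 to 98 with an array left out, the 98 without control replicate 2.

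Of 207 values of the 13 members named by rule, 9 had the opposite sign, all in members near 0: Psmd6 with the mean of its probes (−0.042), Psme3 with spike-in scaling (0.017) and, with an array left out, Psmc6 (−0.022 to 0.043), Psmd6 (−0.122 to 0.157), Psme3 (−0.224 to 0.09) and Psme4 (−0.012 to 0.143). Apart from the catalytic subunits, the 13 were named by their values in this same fit, so they do not stand for all members. Some alternatives could not change a difference, as given above. Outside the 13, Psmc3, Psmc5, Psmd4 and Psme1 turned above 0 under quantile normalization. Under spike-in scaling these and Psmd2 and Psmd12 did. The cause of the turned signs was not tested.

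Replicate numbers are shared by the groups, but nothing ties like-numbered samples together; their deviations correlated at 0.124, a value fixed up to its sign by 2 samples a group. With the replicate number as a block, 0 members and 0 probes were called. At an unadjusted limma p under 0.05 there were 0 members, against 10.5% of all genes. A block cannot change the differences when each replicate number is in each group, and overlap is read without it. The median (−0.145) and the counts without overlap (21 lower, 0 higher) were therefore fixed in advance.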
